A study of Ciona robusta with 6 samples.

Results

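The genes described here act before Brachyury in the notochord lineage of the tunicate Ciona robusta, an invertebrate chordate. They were chosen by gene model: 2 rows of the deposited table for Foxd (KH.C8.396 and KH.C8.890), 5 for copies of Zic-r.b (KH.S816.1, KH.S816.2, KH.S816.4, KH.L59.1 and KH.L59.12), 1 for Fgf9/16/20 (KH.C2.125) and 1 for Ets1/2 (KH.C10.113). All 9 were present among the 15284 gene models. The table gives identifiers only, so these names come from the list that chose the rows and could not be checked against the data. The 6 libraries came from whole embryos at Hotta stage 14, a neurula stage, grown at 21 degrees Celsius after Cas9 ribonucleoprotein had been injected into unfertilized eggs. In 3 of them (CrBra) the guide RNA was directed at Brachyury, and in the other 3 (CrGFP, the controls) at GFP, which is not a gene of this species. Each sample pooled 50 to 85 embryos, and the labels name no transgene or mutant background. The share of Brachyury alleles that were cut was not analysed here.

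In early Ciona embryos, maternal beta-catenin switches on Foxd, a forkhead transcription factor, and Fgf9/16/20, a secreted fibroblast growth factor, in vegetal cells. Foxd in turn is needed for Zic-r.b, a zinc-finger transcription factor also known as ZicL, and the FGF signal acts through MAP kinase on the transcription factor Ets1/2. Zic-r.b and the FGF signal then act on Brachyury, the T-box gene that directs notochord fate. Zic-r.b also acts in muscle and neural lineages, so RNA from a whole embryo pools several tissues. In such bulk samples, fewer cells of a type and less RNA per cell cannot be told apart.

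The libraries held 13191537 to 16094085 reads, and 13924 to 14067 gene models had reads in each. Between the guides, libraries with the same replicate number resembled each other more than libraries with different numbers. Their deviations from the guide means correlated at 0.82 to 0.88, against -0.57 to -0.30 for different numbers. Deviations from a mean of 3 libraries sum to 0, so positive values for the same number push those for different numbers below 0. The negative values are therefore partly built in. Because of the likeness within numbers, each comparison between guides is given both without the replicate number and with it as a block. Other genes of the pathway and tissue markers, 20 symbols each, could not be paired with the identifiers of the table (0 of 20 in both lists), so no tissue marker was read. The gene model KH.S1404.1, taken as Brachyury from general knowledge, checks the labels. Its normalised count, the read count divided by 1 factor per library, stood at 949.5, 582 and 1058 in controls 1, 2 and 3 and at 298, 205 and 313 in CrBra libraries 1, 2 and 3. All 3 CrBra libraries lay below all 3 controls, as they did, in either direction, for 1.78% of the 11953 gene models tested.

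None of the 9 upstream gene models passed the test for a difference between the guides. The test was limma on log2(normalised count + 1), with p-values adjusted over all 11953 tested models. All 9 had passed the filter on low values. With the replicate number as a block, 0 of 9 were called, where 0.402% of all tested models were, and 0 of 9 had an unadjusted p under 0.05, where 4.77% of all did. Without the block 0 of 9 were called, where 0 models of the whole table were (0%), and again 0 of 9 had an unadjusted p under 0.05 (0.502% of all). The count was also 0 of 9 in edgeR and in DESeq2, where 0.477% and 0.485% of all models were called with the block and 0% and 0.176% without it. The blocked log2 fold changes of CrBra over CrGFP ran from -0.20 to 0.065, with 4 members lower and 5 higher. Their median was 0.0010, and the median over all tested models was 0.0061.

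A p-value that misses the threshold does not show that levels were equal, so the 95% intervals of the differences were read. In the blocked limma fit, all 9 intervals lay within a 2-fold change in either direction, and 8 of 9 lay within 1.5-fold. Without the block, 4 of 9 lay within 2-fold and 1 of 9 within 1.5-fold. KH.S1404.1 itself had a log2 fold change of -1.64 with a blocked interval from -1.81 to -1.47. It was called with the block (limma, adjusted p = 8.89e-05) and not without it (adjusted p = 0.608). In no pair did any member fall as low as it did. The CrBra library kept 29.6% to 35.3% of the control level of KH.S1404.1, while the lowest value among the 9 members and 3 pairs was 55.1%.

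**Figure D1:**
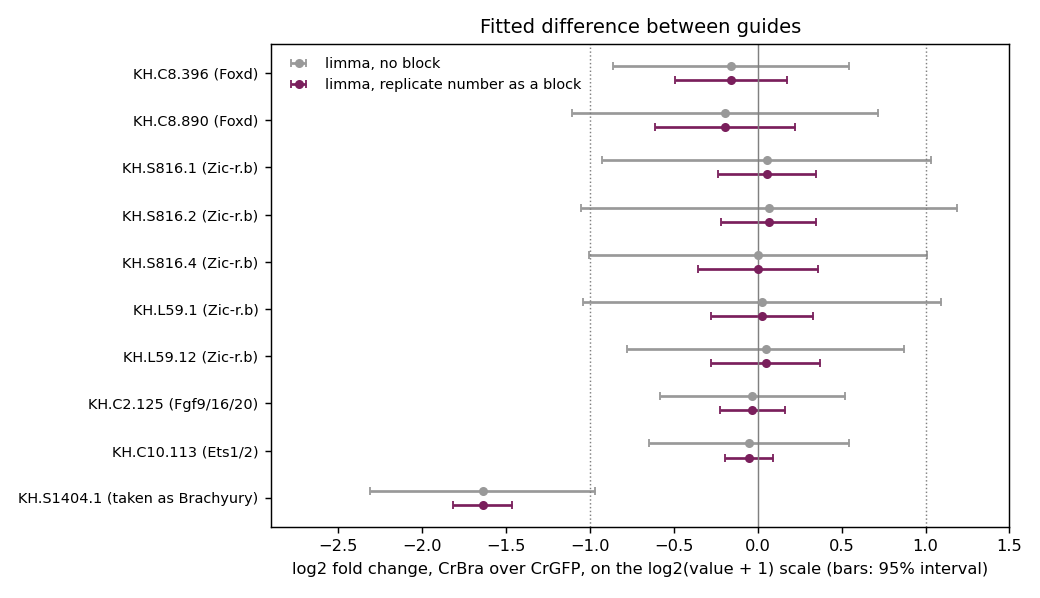
Log2 fold change of CrBra over CrGFP on the log2(normalised count + 1) scale for the 9 upstream gene models and KH.S1404.1, with 95% intervals from limma with 3 libraries per guide. Grey marks the fit without the replicate number and purple the fit with it as a block, and dotted lines mark 2-fold. All 9 blocked intervals of the upstream models include 0 and lie inside the dotted lines, and those of KH.S1404.1 lie below 0 in both fits.

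The Foxd rows come first in the cascade, and their levels were lower with the Brachyury guide in 1 of the 3 pairs. KH.C8.396 had normalised counts of 423, 305 and 209.6 in controls 1, 2 and 3 and of 269, 326 and 221 in CrBra libraries 1, 2 and 3. KH.C8.890 had 458, 367 and 199 in the controls and 252, 421 and 209.8 in the CrBra libraries. Both rows were highest in CrGFP replicate 1 and lowest in CrGFP replicate 3, so the guide groups overlapped. In pair 1 the CrBra library held 63.6% of the control level for KH.C8.396 (exact counting interval 54.9% to 73.6%) and 55.1% for KH.C8.890 (47.5% to 63.8%). Values at least as low were found in 3.86% and 2.08% of all tested models in that pair. In pairs 2 and 3 the rows lay between 105% and 115% of the control, and their 4 counting intervals all included 100%. These intervals compare 2 libraries and cover counting error only, not the difference between embryo pools.

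Over the 3 pairs the Foxd rows had blocked log2 fold changes of -0.16 with a standard error of 0.15 (KH.C8.396) and -0.20 with a standard error of 0.18 (KH.C8.890). The adjusted p in blocked limma was 0.999 for each. The blocked interval of KH.C8.890 was the widest of the 9 members, from 65.3% to 117% of control. Both negative values rested on pair 1. Without it the blocked values were 0.086 and 0.13. Summed over both rows, Foxd reached 654 ± 237 (SD, n = 3) in the controls and 566 ± 163 (SD, n = 3) with the Brachyury guide. An exact two-sided permutation test of the 3 against 3 sums gave p = 0.7, and such a test cannot go below 0.1.

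Zic-r.b, the gene that links Foxd to Brachyury, is represented by 5 rows. KH.S816.1, the row with the highest normalised count, had 472, 273 and 569.9 in the controls and 659.6, 253 and 491 in the CrBra libraries. KH.S816.2 had 398, 199 and 370.4 in the controls and 523, 164 and 392 in the CrBra libraries. Both rows were lowest in the replicate 2 libraries of either guide and highest in CrBra replicate 1. KH.S816.4 had 144, 92.5 and 161 in the controls and 185, 70.3 and 165 in the CrBra libraries. KH.L59.12 had 142, 92.5 and 147 in the controls and 185, 86.0 and 134 in the CrBra libraries, with the same extremes. KH.L59.1 had 182, 109 and 285 in the controls and 233, 107 and 238 in the CrBra libraries. It too was lowest in the replicate 2 libraries, but its highest value was in CrGFP replicate 3. In all 5 rows the guide groups overlapped.

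All 5 Zic-r.b rows were higher with the Brachyury guide in pair 1, at 128% to 139.8% of the control, and in each the counting interval left out 100%. In pair 2 all 5 were lower, at 76.0% to 98.5%, and all 5 intervals included 100%. In pair 3 they ran from 83.7% to 106%, with 3 rows lower and 2 higher, and the intervals of KH.S816.1 and KH.L59.1 left out 100%. The summed Foxd rows lay at 59.2%, 111% and 105% of control in pairs 1, 2 and 3, and the summed Zic-r.b rows at 133%, 88.8% and 92.7%. The sums thus lay on opposite sides of 100% in all 3 pairs, while KH.S816.2 and KH.S816.4 lay above 100% with the Foxd rows in pair 3. The counting intervals of the Foxd sum included 100% in pairs 2 and 3, and the opposite directions were not tested. The blocked log2 fold changes of the 5 rows were 0.0010 (KH.S816.4) to 0.065 (KH.S816.2), with standard errors of 0.12 to 0.16, and their intervals together ran from -0.36 to 0.37.

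**Figure D2:**
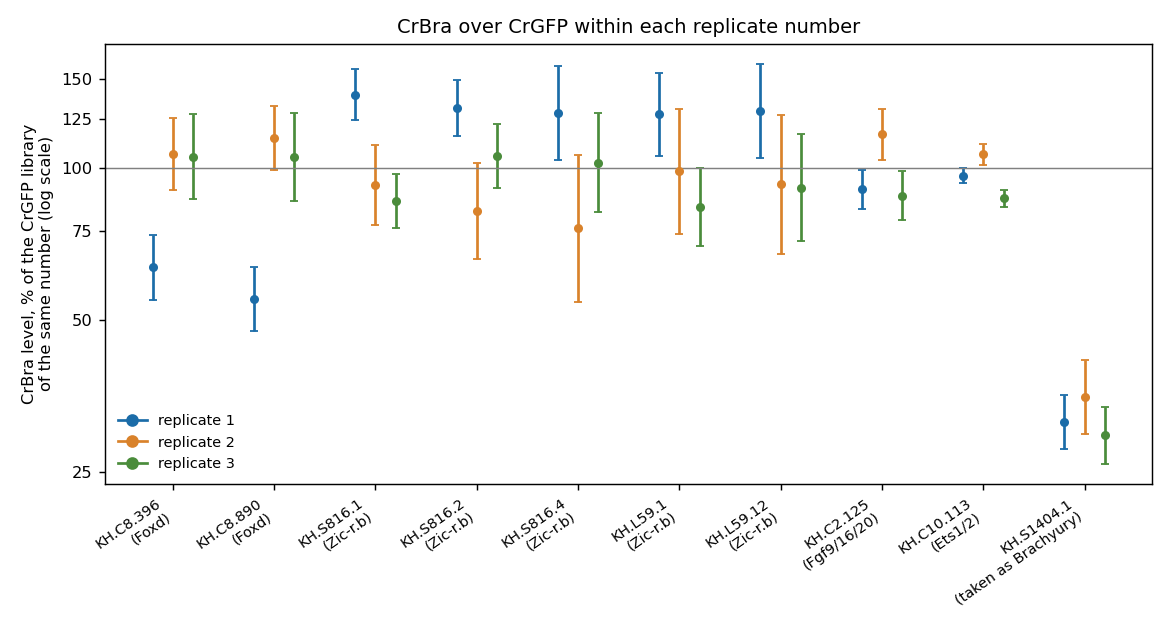
CrBra level as a percentage of the CrGFP library with the same replicate number, on a log axis, for each gene model and each of the 3 pairs. Bars are 95% exact counting intervals of the ratio of reads in 2 libraries. In replicate 1 (blue) both Foxd rows lie below 100% and all 5 Zic-r.b rows above it, and KH.S1404.1 lies at 29.6% to 35.3% in all 3.

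Where copies of a gene are nearly identical, the counts of single rows depend on how the authors' counting assigned shared reads, which the sources used here do not give. The sum over the 5 rows does not depend on the split among them. It was 1339, 766 and 1533 in the controls and 1786, 681 and 1420.2 in the CrBra libraries. Its mean was 1213 ± 398 (SD, n = 3) over the controls and 1296 ± 563 (SD, n = 3) over the CrBra libraries. The exact two-sided permutation test gave p = 0.9, and the adjusted p over both sums, Foxd and Zic-r.b, was 0.9. The ratio of mean sums changed sign without CrGFP replicate 2 or CrBra replicate 1. Within pairs the summed level was 133%, 88.8% and 92.7% of control (counting intervals 124.6% to 143%, 79.7% to 99.0% and 86.1% to 99.7%).

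The mean share of each row in the Zic-r.b signal was similar under both guides. KH.S816.1 took 34.6% to 37.2% of the reads of the 5 rows in the 6 libraries, and KH.S816.2 took 24.1% to 29.7%. KH.S816.4 took 10.3% to 12.1%, and KH.L59.12 took 9.44% to 12.6%. KH.L59.1 varied most in proportion, from 13.04% in CrBra replicate 1 (exact interval 11.6% to 14.6%) to 18.6% in CrGFP replicate 3 (16.7% to 20.7%). Its mean share was 15.5% ± 2.73 (SD, n = 3) over the controls and 15.2% ± 1.93 (SD, n = 3) over the CrBra libraries. For every row the shares of both guide groups overlapped, and exact two-sided permutation tests gave p = 0.5 to 1. Such tests of 3 against 3 cannot go below 0.1, so they cannot decide whether the shares differed. The 2 Foxd rows divided their reads nearly evenly, with 43.6% to 51.6% for KH.C8.396. These shares are of reads and were not corrected for the length of the gene models, which was not analysed here.

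**Figure D3:**
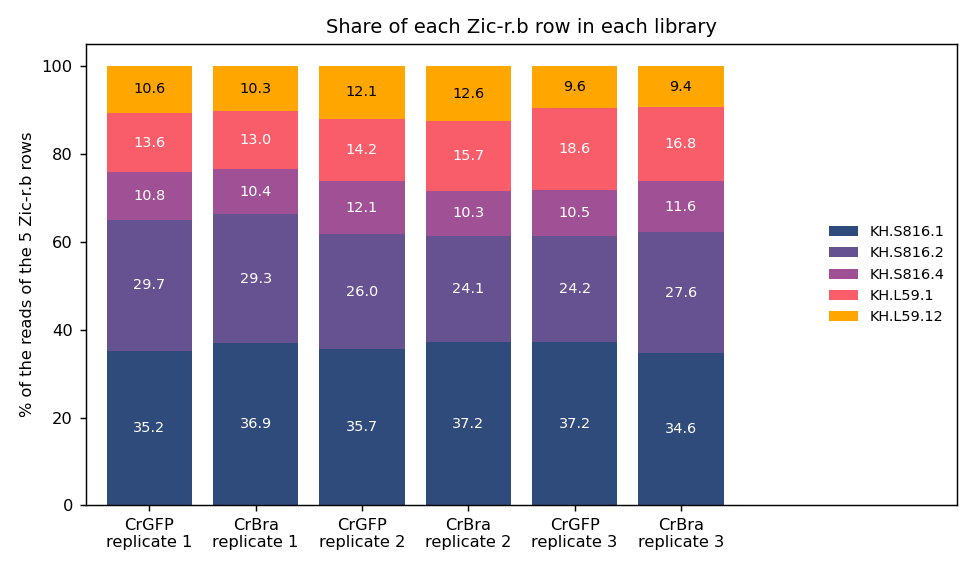
Share of each of the 5 Zic-r.b rows in the reads of all 5, in percent, for the 6 libraries. The order of the 2 largest shares is the same in every library, and KH.L59.1 ranges from 13.04% to 18.6%.

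Fgf9/16/20, the ligand of the FGF signal, was measured by KH.C2.125. Its normalised count was 948, 578 and 675 in the controls and 860.3, 675 and 596 in the CrBra libraries. The replicate 1 libraries of both guides were highest, and the groups overlapped. The means were 734 ± 191 (SD, n = 3) over the controls and 710.4 ± 136 (SD, n = 3) over the CrBra libraries. CrBra held 90.8%, 117% and 88.3% of control in pairs 1, 2 and 3, so the direction differed among pairs. The blocked log2 fold change of -0.032 had a standard error of 0.085, and the interval ran from 85.4% to 112% of control.

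Ets1/2, the transcription factor on which the FGF signal acts, had the most reads of the 9 rows and the narrowest blocked interval. KH.C10.113 had normalised counts of 5850.1, 3455 and 5628 in the controls and 5651, 3681 and 4901 in the CrBra libraries. The replicate 2 libraries were lowest under either guide, and the groups overlapped. CrBra held 96.6%, 107% and 87.1% of control in the 3 pairs. With 3298 to 6674 reads per library, the counting intervals in pairs 2 and 3 left out 100% in opposite directions. The blocked log2 fold change of -0.053 had a standard error of 0.062, and the interval ran from 87.4% to 106% of control. Of the 9 members, 0 moved in the same direction in all 3 pairs, against 23.6% of all tested models. The 9 rows stand for only 4 genes, with 5 rows of Zic-r.b and 2 of Foxd, and this difference was not tested.

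**Figure D4:**
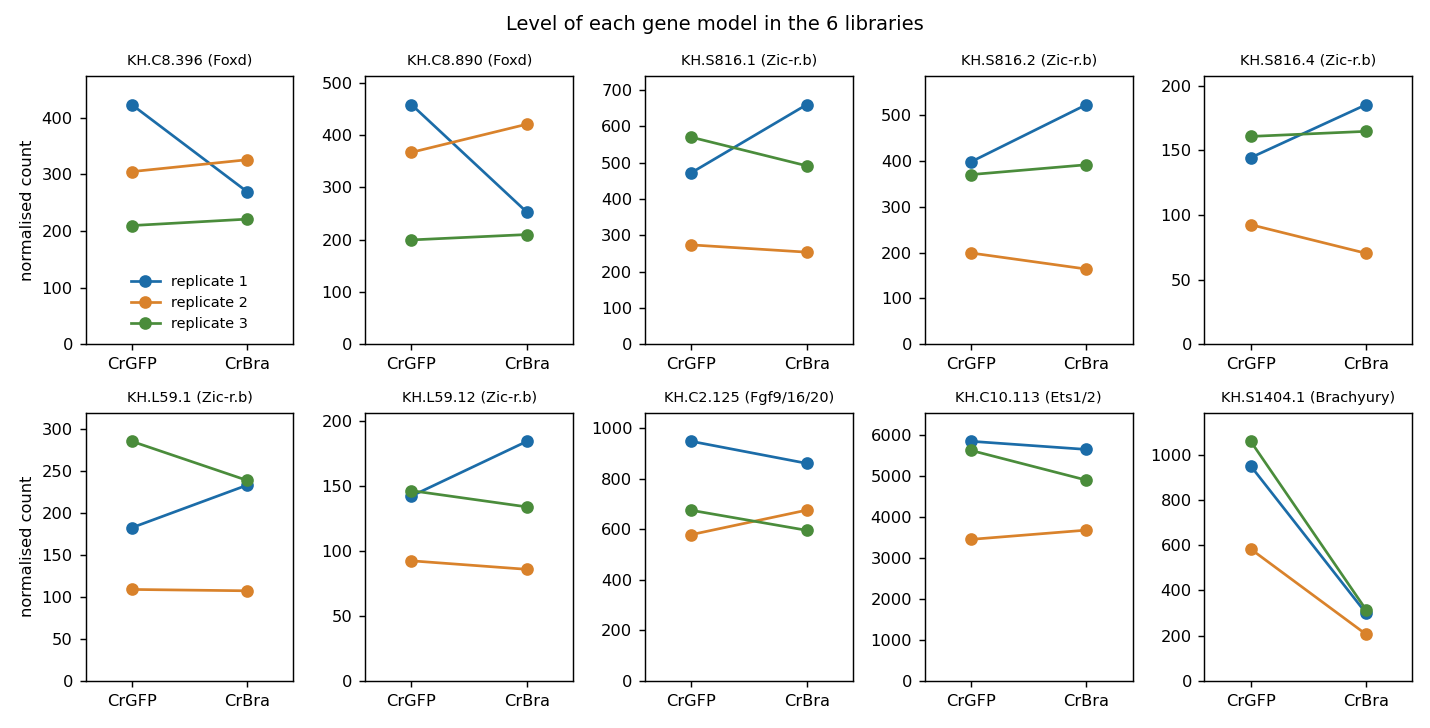
Normalised count of the 9 upstream gene models and KH.S1404.1 in the 6 libraries, each panel with its own axis from 0. Lines join libraries of the same replicate number. KH.S1404.1 falls in all 3 pairs, and the other panels show lines of mixed direction.

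Differences within pairs often went beyond counting error. The counting interval left out 100% for 8 of 9 members in pair 1, where it did so in 29.5% of all tested models. It did so for 2 of 9 in pair 2 (17% of all models) and for 4 of 9 in pair 3 (18.5% of all models). Members with many reads have narrow intervals, and the 5 Zic-r.b rows are copies of 1 gene, so these counts are not independent.

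The levels of the upstream genes varied more between replicate numbers than between guides. In a limma F test that also held the guide, all 9 members differed among the 3 numbers at an adjusted p under 0.05, where 73.4% of all tested models did. The adjusted p ran from 0.000211 for Ets1/2 to 0.0209 for KH.C8.396. The range between the numbers was largest for KH.S816.2, at 2.52-fold, and smallest for Fgf9/16/20, at 1.44-fold. The median range was 1.92-fold over the 9 members and 1.47-fold over all tested models, but 5 of the 9 are copies of Zic-r.b. Ranges at least as large as those of the Zic-r.b rows were found in 12.3% to 28.0% of all tested models. This share was 23.9% for KH.C8.890, 41.8% for KH.C8.396, 38.5% for Ets1/2 and 52.6% for Fgf9/16/20. What a replicate number stands for, such as a spawning or a day, is not given in the labels.

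The upstream genes did not all vary together across the numbers, and the Foxd rows stood apart from the Zic-r.b rows. The 5 Zic-r.b rows, Ets1/2 and Fgf9/16/20 were lowest in number 2, and the Foxd rows in number 3. Fgf9/16/20 was highest in number 1, with nearly equal geometric means of 625 and 634 in numbers 2 and 3. Likeness between models was measured as the root mean square difference of log2(normalised count + 1) over the 6 libraries, each model centred on its own mean. The Foxd rows differed from each other by 0.18 on this scale, and 0.126% of the other tested models were closer to KH.C8.890 and 1.08% closer to KH.C8.396. Among pairs of Zic-r.b rows the difference ran from 0.12 (KH.S816.1 and KH.S816.4) to 0.28 (KH.L59.1 and KH.L59.12). In the first pair 0.092% of models were closer to KH.S816.1 and 0.033% closer to KH.S816.4. In the last pair 15.9% were closer to KH.L59.12 and 3.23% closer to KH.L59.1. Ets1/2 lay at 0.15 from KH.L59.12, nearer than KH.L59.1 did, and 2.17% of models were closer to KH.L59.12. From the other Zic-r.b rows Ets1/2 lay at 0.26 to 0.33. Fgf9/16/20 lay at 0.23 from Ets1/2, at 0.30 from KH.C8.396 and at 0.47 from KH.C8.890. From the Zic-r.b rows it lay at 0.31 (KH.L59.12) to 0.54 (KH.L59.1), so KH.C8.396 was nearer to it than any of these. Foxd and Zic-r.b lay far apart, with a difference of 0.90 between KH.C8.890 and KH.S816.1, and 91.6% of models were closer to KH.C8.890. The model most like KH.C8.890, leaving out the members and KH.S1404.1, was KH.C1.33 (0.073), and the model most like KH.S816.1 was KH.C4.435 (0.047). For Fgf9/16/20 it was KH.L63.16 (0.053), and for Ets1/2 it was KH.C1.169 (0.041). These values describe 6 libraries that share a strong structure by replicate number.

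In the controls, KH.S1404.1, the Zic-r.b sum, Fgf9/16/20 and Ets1/2 were all lowest in replicate 2, while the Foxd sum was lowest in replicate 3. This relation was looked at after the values had been seen, over only 3 libraries, and no test was made. All 6 libraries came from stage 14, so levels in the early embryos where the cascade starts were not measured. In CrGFP replicates 1, 2 and 3, KH.S1404.1 stood at 110%, 67.5% and 123% of its mean, and the summed Zic-r.b rows stood at 110%, 63.2% and 126% of theirs. Ets1/2 stood at 118%, 69.4% and 113%, and Fgf9/16/20 at 129%, 78.8% and 92.0%, while the summed Foxd rows stood at 135%, 103% and 62.5%. The ratio of KH.S1404.1 to the Zic-r.b sum spanned 1.10-fold over the 3 controls, and its ratio to Ets1/2 spanned 1.16-fold, although KH.S1404.1 alone spanned 1.82-fold. Taken singly, the 5 Zic-r.b rows gave spans of 1.05-fold (KH.S816.4) to 1.44-fold (KH.L59.1), the Foxd rows 2.64-fold and 3.34-fold, and Fgf9/16/20 1.57-fold. Over 11911 other tested models with reads in all controls the median span was 2.06-fold. Of these models, 0.101% spanned no more than KH.S816.4, 11.4% no more than KH.L59.1, 1.35% no more than Ets1/2 and 18.5% no more than Fgf9/16/20. For the Foxd rows the shares were 74.2% (KH.C8.396) and 85.7% (KH.C8.890).

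In the CrBra libraries the ratio of KH.S1404.1 to the Zic-r.b sum was lower in every pair. The fall of KH.S1404.1, the targeted gene, lowers any such ratio, so this is not a result about Zic-r.b. Its ratio to each of the 9 members was also lower in every pair, at 22.5% to 57.0% of control. The ratio to the Zic-r.b sum kept 23.5%, 39.7% and 31.9% of its control value in pairs 1, 2 and 3. This spread is wider than that of KH.S1404.1 alone, which kept 31.4%, 35.3% and 29.6%. Among the 3 CrBra libraries the ratio to the Zic-r.b sum spanned 1.81-fold, more than the 1.52-fold of KH.S1404.1 alone, unlike in the controls. The ratio to Ets1/2 spanned 1.21-fold there. Relative to Ets1/2, KH.S1404.1 kept 32.5%, 33.1% and 34.0%, so these 3 values lay closer together than those of KH.S1404.1 alone. Relative to Fgf9/16/20 it kept 34.6%, 30.2% and 33.5%, which also lay closer together than those of KH.S1404.1 alone. The share of other models with values this close was not analysed, and the closeness was not tested.

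**Figure D5:**
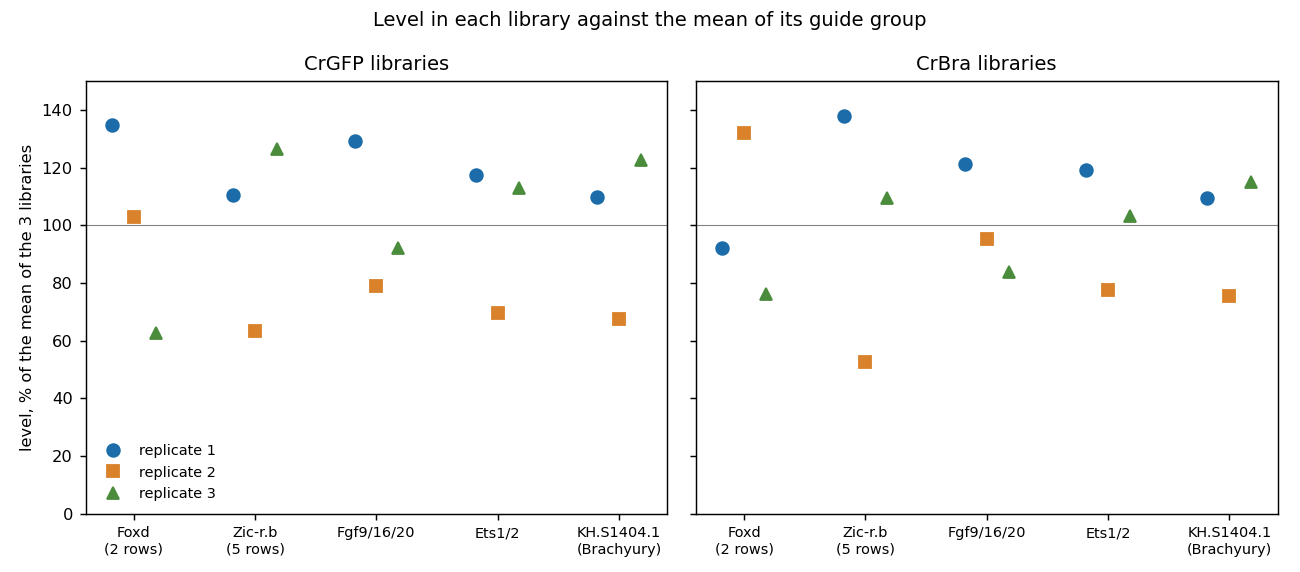
Level in each library as a percentage of the mean of the 3 libraries with the same guide, for the summed Foxd rows, the summed Zic-r.b rows, Fgf9/16/20, Ets1/2 and KH.S1404.1. Colours and symbols mark the replicate number. In the controls KH.S1404.1, Zic-r.b, Fgf9/16/20 and Ets1/2 are all lowest in replicate 2, and Foxd is lowest in replicate 3.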

How the data were processed

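RNA-seq of 6 whole-embryo libraries was used, 3 per guide. Per the labels' protocols, a strand-specific mRNA kit was used. TopHat2 2.9.8b and DESeq 1.8.1 are named in the submitters' processing notes; counting tool, strand setting and genome build are not given in the sources used here. Per the file headers, the authors deposited a signal, which is counts normalised to library size, and regularized log2 values. All 12 value columns were mapped by name. Within 0.01 reads, 100% of the values were whole multiples of 1 read, so whole reads were recovered, and they total 13191537 to 16094085 per library. A count of 0 allows up to 3 reads; no member was at 0.

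Tested were the 11953 models that reached a value of 10 in 3 or more libraries. Limma 3.58.1 with a mean-variance trend (R 4.3.3) was applied to log2(value + 1), two-sided, with Benjamini-Hochberg adjustment over all tested models and a 5% threshold. The design text calls the replicates biological, but the labels do not say from which spawnings or cultures they came, so p-values measure only the spread between these samples. The planned fit had no covariate, and the alternative had the replicate number as a block. Deviations from group means correlated at 0.86, 0.88 and 0.82 between libraries of the same number, each above 0.1, so the numbers were treated as pairs. This pairing comes from the data and the titles' numbers. Counting intervals of ratios and shares are exact (Clopper-Pearson, 95%). edgeR 4.0.16 and DESeq2 1.42.0 were run on the recovered reads, and the fits were tested on simulated data. Permutation tests of sums and shares were exact.

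All members and KH.S1404.1 are named by rule, and for each of the 4 genes the single most alike model to its row with the highest value. The members, lists and tests were chosen with earlier results of these data known. None of the member identifiers (0 of 9) matched the RefSeq gene table used here.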

Additional observations from a re-analysis of the deposited data

How the results depend on the processing

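No upstream gene model was called under any setting run. Of 207 member values under alternatives, 174 kept their sign and 33 changed it, all 33 with a library or a pair left out. Over the settings that leave out 1 library or 1 pair, the log2 fold change ran from -0.42 to 0.087 for KH.C8.396, -0.54 to 0.13 for KH.C8.890, -0.25 to 0.44 for KH.S816.1, -0.28 to 0.55 for KH.S816.2, -0.26 to 0.43 for KH.S816.4, -0.33 to 0.40 for KH.L59.1, -0.21 to 0.33 for KH.L59.12, -0.19 to 0.17 for KH.C2.125 and -0.30 to 0.12 for KH.C10.113. The lowest adjusted p of a member in any setting was 0.674. Leaving out 1 library moved the log2 ratio of mean sums from -0.21 to between -0.46 and 0.067 for Foxd, and from 0.095 to between -0.21 and 0.40 for Zic-r.b; the sign turned without CrGFP replicate 1 for Foxd, and without CrGFP replicate 2 or CrBra replicate 1 for Zic-r.b. Over the whole table, 0 models were called without the block in limma (60 at an unadjusted p under 0.05) and in edgeR (62), and 21 in DESeq2. With the replicate block the calls were 48 in limma, 57 in edgeR, 58 in DESeq2, 46 with a pseudocount of 0.5 and 27 with no filter, and 88, 25 and 100 without pair 1, 2 or 3 (0 in the 6 unblocked limma fits that left out 1 library); the cause was not tested. KH.S1404.1 was called at -1.64 with the replicate block, also with a pseudocount of 0.5 or no filter, at -1.65 in blocked edgeR and DESeq2, at -1.66 in unblocked DESeq2 and in each blocked fit that left out 1 pair. It lay between -1.90 and -1.45 when 1 library or 1 pair was left out, and was not called in the unblocked fits without 1 library. On the authors' regularized log2 scale it was -0.91. The block changed no call of a member. For the summed rows the mean of the log2 ratios within pairs was -0.18 for Foxd and 0.045 for Zic-r.b, with an exact p of 1 for both; an exchange of labels within 3 pairs cannot give a p below 0.25.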
